A study of Arabidopsis thaliana with 18 samples.

Results

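A set of 38 probe sets, of 22746 on the array, lost signal when Arabidopsis seedlings grew without inorganic phosphate (Pi) and was still low 4 h after Pi was given back. The members were chosen from group means of the log2 signal. Each fell by at least 1.5 (log2) on starvation in wild type (WT) and in a spx1,spx2 double mutant, and moved by less than 0.5 on resupply in both. BHLH101, a transcription factor gene of the iron-deficiency response, also met the rule and was left out by name. The probe table names a gene for 19 members, and the other 19 go by their probe set ID. The starvation and resupply changes chose the members, so both are described here without a test. For the members only the differences between the genotypes within a medium were tested. Counts over gene families and lists, given beside the members, do use tests of the starvation and resupply changes. Where a list holds a member, that member is counted too.

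Whole Col-0 seedlings, labelled 7 days old, were measured on 18 Affymetrix arrays, 3 for each of 6 groups. Both genotypes were sampled after 7 days on complete solid Johnson medium, after growth on that medium lacking Pi, and after growth lacking Pi followed by 4 h on complete medium. The mutant carries both lesions in all of its groups. The sources used here give neither the alleles, the number of pooled seedlings and the harvest times, nor whether the seedlings that were not resupplied were also moved to fresh medium.

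Plants short of Pi slow shoot growth, remodel membranes and walls, and switch on genes for Pi uptake and scavenging. Much of that induction runs through the transcription factor PHR1 and its relatives. SPX1 and SPX2 are nuclear proteins of the SPX domain family, known to bind PHR1 and hold it back when Pi is ample.

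No probe set is named for SPX1 or SPX2, so the loss of their transcripts was not checked. Among the organ markers, the shoot antenna gene LHCB4.2 read 12.37 to 13.56 (log2 group means), and EXPA7 and EXPA18, expansin genes of root hairs, read 6.78 to 9.92. EXPA7 in WT was at 6.78 in complete medium, 7.79 without Pi and 8.25 on resupply, and in the mutant at 7.27, 7.58 and 9.49. The pollen gene AGL66 read 3.19 to 3.44. The other listed markers are not named in the probe table, which gives no gene for 8730 probe sets. The part of root and shoot shares in the results below was not tested. In whole seedlings, fewer cells of a type and less RNA per cell cannot be told apart. Spike-in controls set 3 arrays apart: replicate 3 of WT on complete medium, and replicate 2 on complete medium and replicate 1 without Pi of the mutant. Their dap control signal was 4.99 to 5.25, against 7.77 to 9.25 on the other 15. The median member read 0.16 below the other replicates of its group on each of the complete-medium arrays of these 3, and 0.11 above on the starved one.

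In complete medium the members spanned a wide range of signal, and starvation lowered them, with a median change of -2.40 in WT and -1.97 in the mutant (log2). The median change over all probe sets was -0.11 in WT and -0.03 in the mutant. The members' means in WT in complete medium ran from 5.01 to 12.38, with a median of 8.21, where the median of all probe sets was 6.80. The falls corresponded to between 2.86-fold and 17.7-fold in WT and between 2.84-fold and 20.6-fold in the mutant. The fall was larger in WT in 27 members and larger in the mutant in 11. In every member the 3 starved arrays lay below the 3 arrays from complete medium in both genotypes, as they did at 31% of all probe sets in WT and 28.6% in the mutant. Nothing is read from these counts, since the rule used this contrast. A fitted change had a standard error (SE) of 0.12 to 0.38 over the members, with a median of 0.20.

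Over 4 h of resupply the members regained little of the fall. The median member regained 0.55% of its fall (log2 scale) in WT and 2.94% in the mutant. The largest regain was 29.6% in WT, for 254250_at, and 25.4% in the mutant, for AT1G67865. The mean signal moved further down in 17 members in WT and in 18 in the mutant. Both genotypes moved up in 13 members, both moved down in 10, and they moved in opposite directions in 15. The resupplied and starved arrays overlapped in 23 members in WT and in 30 in the mutant, against 42% and 48.1% of all probe sets. The resupplied arrays lay below those from complete medium in all 38 members in both genotypes, a pattern found at 34.6% and 24.6% of all probe sets. The rule shaped all of these counts. The 95% interval of a resupply change reached 0.42 to each side in the median member, close to the limit of 0.5.

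The members are part of a larger group of repressed probe sets. In all, 521 probe sets fell by 1.5 or more in WT, 376 in the mutant and 197 in both. Of the 197, 79 rose by 0.5 or more on resupply in both genotypes, 17 fell by as much in both, 62 had another pattern, and 39 stayed within the limits, BHLH101 included. At the edge of the rule, 248169_at was just inside for the fall in WT (-1.52) and 247331_at just outside (-1.47). For the fall in the mutant, AT4G27700 was inside (-1.51) and AT5G56100 outside (-1.49). The resupply limit in WT lay between 254250_at (0.49) and 248606_at (0.51). In the mutant AT4G33666 (0.49) was inside and GT2 (-0.51) outside.

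**Figure D1:**
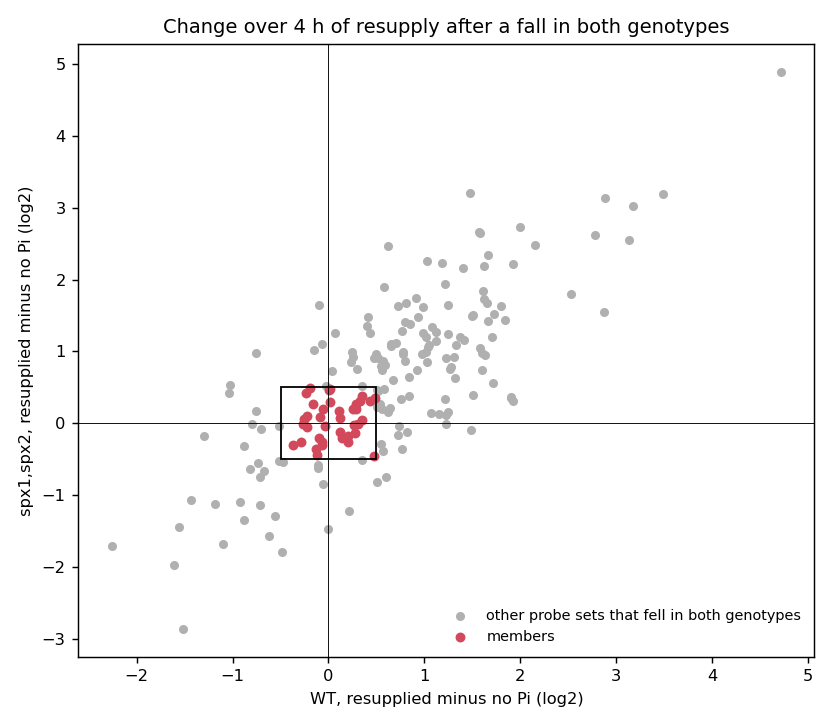
Change of the log2 signal over 4 h of resupply in WT (horizontal) and in spx1,spx2 (vertical), 1 point per probe set that fell by 1.5 or more without Pi in both genotypes (197 in all). The square marks the limits of 0.5 and holds the 38 members (red) and BHLH101 (grey). The other grey points lie outside it, some close to its edge and some far away, such as AT5G37990 at 4.72 in WT and 4.89 in the mutant.

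AT5G14650 encodes a protein of the polygalacturonase family, enzymes that cut pectin. Its signal in WT was 8.34, 8.63 and 8.73 in complete medium, 4.77, 4.78 and 4.69 without Pi, then 4.39, 4.33 and 4.40 on resupply. The mutant read 8.06, 8.37 and 8.07, then 4.06, 4.59 and 4.33, then 4.16, 3.77 and 4.17. The fall was 14.1-fold in WT and 14.3-fold in the mutant, and in WT every resupplied array was below every starved array. EXPA8 encodes an alpha-expansin, a protein that loosens walls during growth. It read 8.36, 8.59 and 8.75 in WT in complete medium, 6.04, 6.24 and 5.72 without Pi, then 6.04, 6.06 and 5.92 on resupply. In the mutant it read 7.18, 7.97 and 7.90, then 6.04, 5.67 and 5.78, then 5.93, 6.56 and 6.37. The genotypes overlapped without Pi but not in complete medium, where the mutant was lower, and the fall was 5.93-fold in WT and 3.62-fold in the mutant.

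AT2G05540 encodes a glycine-rich protein. WT read 10.64, 11.11 and 11.22 in complete medium, 8.31, 7.93 and 7.85 without Pi, then 8.46, 8.24 and 8.46 on resupply. The mutant arrays in complete medium were far apart, at 8.74, 10.19 and 10.79, while its starved arrays were close together at 7.94, 7.90 and 7.94. On resupply they read 8.27, 8.46 and 8.19, above all 3 starved arrays. PR-1-LIKE belongs to the pathogenesis-related protein 1 family of secreted proteins. WT went from 8.29, 8.33 and 8.47 to 6.28, 5.70 and 5.88 without Pi and to 5.74, 5.63 and 5.70 on resupply. Its mutant arrays were tight in complete medium, at 7.83, 7.82 and 7.73, and read 6.06, 5.85 and 5.47 and then 5.54, 5.75 and 6.05.

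Of 18 expansin and expansin-like genes found by name, 4 fell on starvation in WT and 10 rose (limma), with a median change of 0.50. Of all probe sets 48.5% changed in WT, 28.1% down and 20.4% up. In the mutant 5 fell and 7 rose, where 44% of all probe sets changed, 26.3% down and 17.7% up. Both counts of falls include EXPA8, whose fall the rule required. The other falls in WT were smaller than that of EXPA8. EXPB2 changed by -0.99 ± 0.18 (SE) in WT and -0.77 ± 0.18 in the mutant, and EXPA4 by -0.70 ± 0.13 and -0.90 ± 0.13. On resupply EXPB2 changed by -0.27 and -0.20, which did not pass the test in either genotype (limma adjusted p = 0.295 and 0.411). EXPA4 rose on resupply by 0.60 in WT and 1.54 in the mutant. EXPB3 fell on starvation (-0.54 in WT and -0.29 in the mutant) and again on resupply (-0.47 and -0.32). EXLA3, an expansin-like gene, rose on starvation by 3.68 in WT and 4.37 in the mutant. Among 7 measured genes of xyloglucan endotransglucosylases, which cut and rejoin wall glucans, 4 rose and 3 fell in WT, and none is a member.

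The deepest fall by the mean of both genotypes was that of AT3G62950, a glutaredoxin gene of the plant-specific CC type. Glutaredoxins reduce disulfides with glutathione, and CC-type proteins are known to work with TGA transcription factors. AT3G62950 read 6.87, 7.62 and 7.31 in WT in complete medium, 3.03, 3.16 and 3.16 without Pi, then 3.26, 3.19 and 3.25 on resupply. The mutant read 6.16, 7.01 and 7.58, then 3.22, 3.08 and 3.06, then 3.52, 3.09 and 3.26. The starved and resupplied arrays of both genotypes were all between 3.03 and 3.52, near the lowest signals on the array. The falls of 17.7-fold and 13.9-fold may therefore be understated.

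Of 17 measured CC-type glutaredoxin genes, 10 fell on starvation in WT and 5 rose, with a median change of -1.02. Over all probe sets 28.1% fell and 20.4% rose in WT. In the mutant 10 also fell and 5 rose, where 26.3% of all probe sets fell and 17.7% rose. Both counts of falls include AT3G62950, whose fall the rule required. AT4G15700 changed by -2.98 in WT and -2.97 in the mutant, and AT4G15690 by -2.58 and -2.05. GRX480 rose by 5.27 and 3.85, and AT1G03020 by 3.04 and 3.22. On resupply 7 of the 17 rose and 3 fell in WT, and 9 rose and 3 fell in the mutant, where 37.4% of all probe sets changed in WT (18.4% up and 19% down) and 42.8% in the mutant (23.5% up and 19.3% down). AT4G15700 changed by 1.73 in WT and 1.52 in the mutant over these 4 h. AT3G62950 moved by 0.11 and 0.17. AT4G15690 missed membership narrowly, with resupply changes of 0.35 and 0.52.

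AT5G26200 encodes a protein of the mitochondrial carrier family, transporters of organelle membranes. WT read 8.31, 7.88 and 7.97 in complete medium, 4.61, 4.38 and 4.42 without Pi, then 4.24, 4.28 and 4.23 on resupply. The mutant read 5.87, 6.02 and 6.99 in complete medium, then 4.42, 4.45 and 4.37, then 4.33, 4.39 and 4.36. The genotypes did not overlap in complete medium and met at a low level without Pi. The fall was 12.01-fold in WT and 3.68-fold in the mutant.

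Genes with products in the chloroplast included ndhF, which is encoded in the plastid genome, and the nuclear genes AT1G44000 and AT4G27700. ndhF makes a subunit of the NDH complex, which returns electrons to the photosynthetic chain around photosystem I. Its arrays in complete medium were the most spread of all members in WT, at 6.38, 7.82 and 5.28, while the mutant read 7.32, 6.75 and 6.61. Without Pi it read 4.06, 3.60 and 3.68 in WT and 4.00, 4.26 and 4.07 in the mutant. On resupply it read 3.38, 3.54 and 4.02 in WT and 3.87, 3.76 and 3.62 in the mutant. All starved and resupplied arrays were thus low in both genotypes. Of 10 plastid ndh genes, a list made after the members were known, 3 fell on starvation in each genotype. Over all probe sets 28.1% fell in WT and 26.3% in the mutant. The 3 include ndhF, whose fall the rule required, so nothing is read from their share. The others were ndhG (-2.50 ± 0.39 in WT) and ndhD (-1.85 ± 0.18 in WT). ndhG changed by a further -1.55 in WT and -1.43 in the mutant on resupply, and ndhD by -0.05 and -0.27.

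The 25S ribosomal RNA control moved with the medium in WT too. Its mean in WT was 12.15 in complete medium, 11.06 without Pi and 9.83 on resupply, and in the mutant 10.97, 10.29 and 10.26. The first 2 mutant means lean on the arrays with low spike-in signal. In complete medium mutant replicate 2 read 9.80, against 11.60 and 11.51 on the others. Without Pi mutant replicate 1 read 8.53, against 11.18 and 11.16. The 3 prime minus 5 prime difference of the ubiquitin control in WT was 1.34 in complete medium, 1.03 without Pi and 1.16 on resupply, and in the mutant 1.30, 1.01 and 1.18. That of the actin control was 2.95, 3.35 and 3.49 in WT, and 3.33, 3.28 and 3.22 in the mutant. For GAPDH it was -0.035, -0.17 and -0.061 in WT, and -0.112, 0.005 and -0.133 in the mutant. What these controls track, and its part in the signal of ndhF and of the other members, was not tested.

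AT1G44000 is related to STAY-GREEN, whose protein takes magnesium from chlorophyll during its breakdown. It read 10.51, 10.85 and 10.38 in WT in complete medium, 9.09, 8.90 and 8.69 without Pi, then 9.22, 9.16 and 9.28 on resupply. Mutant arrays read 10.48, 10.32 and 10.50, then 9.0, 8.83 and 8.82, then 8.99, 9.22 and 9.36. AT4G27700, a rhodanese-like protein gene, read 10.65, 10.85 and 10.85 in WT, then 9.29, 9.13 and 8.88, then 9.54, 9.53 and 9.53. Both genes were bright, and in both the WT resupplied arrays stood above all starved arrays. AT1G44000 regained 19.3% of its fall in WT and 19.9% in the mutant, and AT4G27700 regained 25.8% and 20.6%.

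Some named members belong to families with roles in signalling or in the nucleus. AT3G19850, of the NPH3 family known from phototropism, read 7.58, 7.95 and 7.08 in WT in complete medium, 5.05, 4.16 and 4.05 without Pi, then 4.29, 4.21 and 4.40 on resupply. Its mutant arrays were at 6.71, 6.18 and 6.88, then 4.30, 4.52 and 4.96, then 4.44, 3.91 and 4.11. The starved arrays of this gene were spread by about as much in WT as those from complete medium. AT5G54630, a zinc finger protein gene, read 8.01, 8.07 and 7.97 in WT, then 6.48, 6.37 and 5.53, then 6.25, 6.18 and 6.30. Mutant arrays read 8.23, 7.95 and 8.0, then 5.89, 5.55 and 6.08, then 5.97, 5.43 and 5.75. It started at the same level in both genotypes.

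AT5G44680, of a DNA glycosylase family known from base excision repair, read 9.47, 9.99 and 9.85 in WT, then 7.94, 8.0 and 7.27, then 7.58, 7.87 and 7.79. The mutant read 9.37, 9.24 and 9.31, then 7.60, 7.01 and 7.76, then 7.86, 7.5 and 7.92. The resupplied arrays of WT lay within the range of the starved ones. AT5G55660, of a DEK-domain family of chromatin proteins, fell from a mean of 7.81 to 6.28 in WT and from 7.55 to 5.86 in the mutant. Its resupplied means were 6.48 and 5.69.

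AT5G40450 is known as RBB1, a large protein that affects vacuole shape. WT read 9.45, 9.80 and 8.95 in complete medium, 6.93, 6.86 and 6.21 without Pi, then 6.53, 6.02 and 6.58 on resupply. The mutant read 7.39, 8.20 and 8.98, then 6.59, 6.65 and 6.72, then 6.67, 6.21 and 6.30. Its complete-medium arrays were again far apart in the mutant and close together without Pi. AT3G28540 encodes an AAA-type ATPase. It read 6.75, 6.21 and 6.24 in WT, then 4.99, 4.96 and 4.67, then 5.26, 5.01 and 5.19. In the mutant it read 6.89, 7.54 and 7.44, then 5.35, 5.0 and 4.63, then 4.79, 4.79 and 5.0. Here the mutant started above WT, and its fall was 4.90-fold against 2.88-fold. AT5G52280, a myosin heavy chain-related gene, was dim in WT, with group means of 5.47, 3.79 and 3.93.

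The genes AT4G33666, AT4G10910 and AT1G67865 are given without a role. AT4G33666 read 10.40, 10.85 and 10.55 in WT, then 7.95, 7.80 and 7.71, then 7.35, 7.80 and 7.74. The mutant gave 9.52, 9.82 and 10.09, then 8.10, 7.11 and 7.80, then 8.21, 7.93 and 8.34. The mutant moved up on resupply to just within the limit, and WT did not. AT4G10910 read 5.98, 6.99 and 6.33 in WT, then 3.98, 4.19 and 3.99, then 3.74, 3.84 and 3.92. Its mutant arrays read 5.41, 5.51 and 6.19, then 4.23, 3.69 and 4.15, then 4.13, 4.08 and 4.17. Its means were below 4.40, the smallest lower quartile of any array, in all starved and resupplied groups. AT1G67865 read 9.13, 9.65 and 9.22 in WT, then 7.47, 7.38 and 7.33, then 7.11, 7.20 and 7.17. In the mutant it read 9.31, 9.23 and 9.45, then 7.79, 7.76 and 7.42, then 8.18, 7.80 and 8.26. On resupply WT moved down and the mutant up, with no overlap between them.

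**Figure D2:**
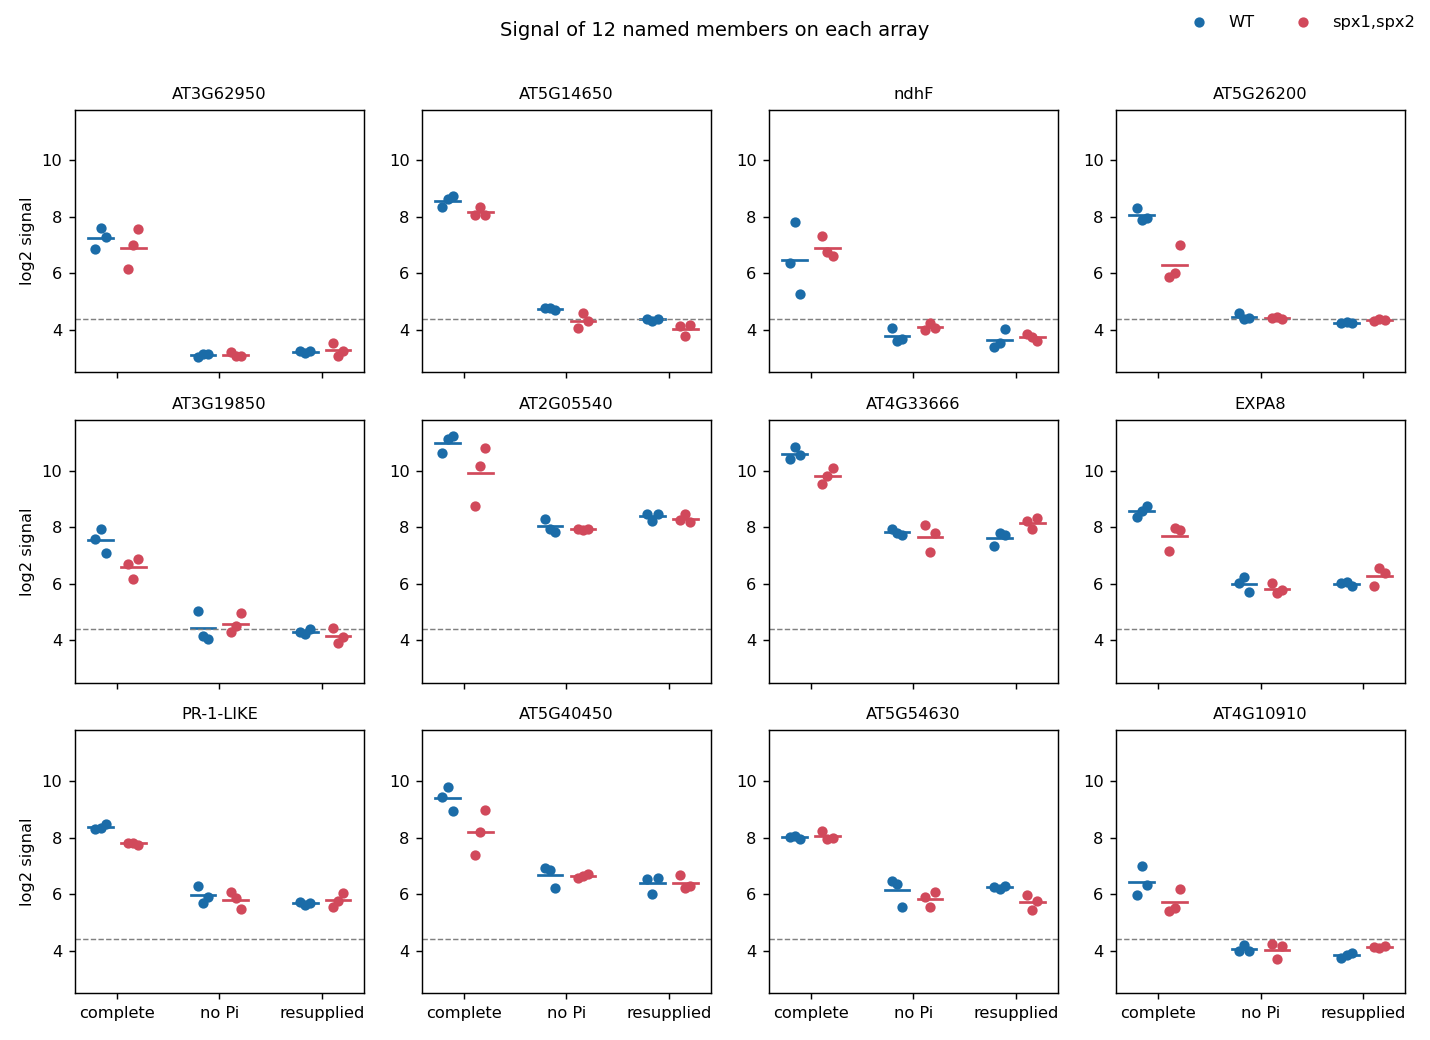
Log2 signal of the 12 named members with the largest mean fall, 1 point per array (WT blue, spx1,spx2 red), with bars at the group means and a dashed line at 4.40, the lowest of the arrays' lower quartiles. In every panel the 6 arrays from complete medium stand above the 12 others, and the starved arrays of AT3G62950, ndhF and AT4G10910 lie below the dashed line in both genotypes.

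The 19 members without a gene name covered a like range. Their median starvation change was -2.39 in WT and -1.98 in the mutant, against -2.41 and -1.88 for those with a name. The unnamed members given with values here were chosen after their values were seen. 249862_at read 12.02, 12.68 and 12.43 in WT in complete medium, 8.38, 8.39 and 8.16 without Pi, then 8.07, 8.42 and 8.5 on resupply. It lost 16.7-fold in WT with starved arrays at 8.16 or above. 266385_at had the largest fall of any member in the mutant, from 10.39, 10.17 and 9.62 to 5.90, 5.48 and 5.72. In WT it went from 8.51, 7.74 and 8.47 to 5.38, 5.46 and 5.40.

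Some members ended near the floor of the array, where a further loss of transcript may lower the signal by less than its full size. A starved mean below 4.40, the smallest lower quartile of any array, was counted as near the floor. The lowest single signal of any probe set, controls included, was 2.29, so the mark is not the lowest reading seen. How far below the mark a given member could read was not tested. By this mark 9 members were near it in both genotypes, 1 more (AT5G14650) in the mutant alone, and 28 in neither. Of all 22746 probe sets, 5546 had a starved mean under the mark in WT. A low starved level is thus not particular to the members. The named ones among the 9 are AT3G62950, ndhF, AT4G10910 and AT5G52280, and the others are 252265_at, 267460_at, 244990_s_at, 248169_at and 264872_at. AT5G26200 and AT3G19850 lay just above the mark in WT, with starved means of 4.47 and 4.42. With the mark at the lowest 10th percentile of the arrays (3.29) in its place, 1 member was under it in both genotypes (AT3G62950) and 3 in either. The falls of members near the floor may be understated. AT5G14650 read lower on resupply than without Pi in both genotypes.

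**Figure D3:**
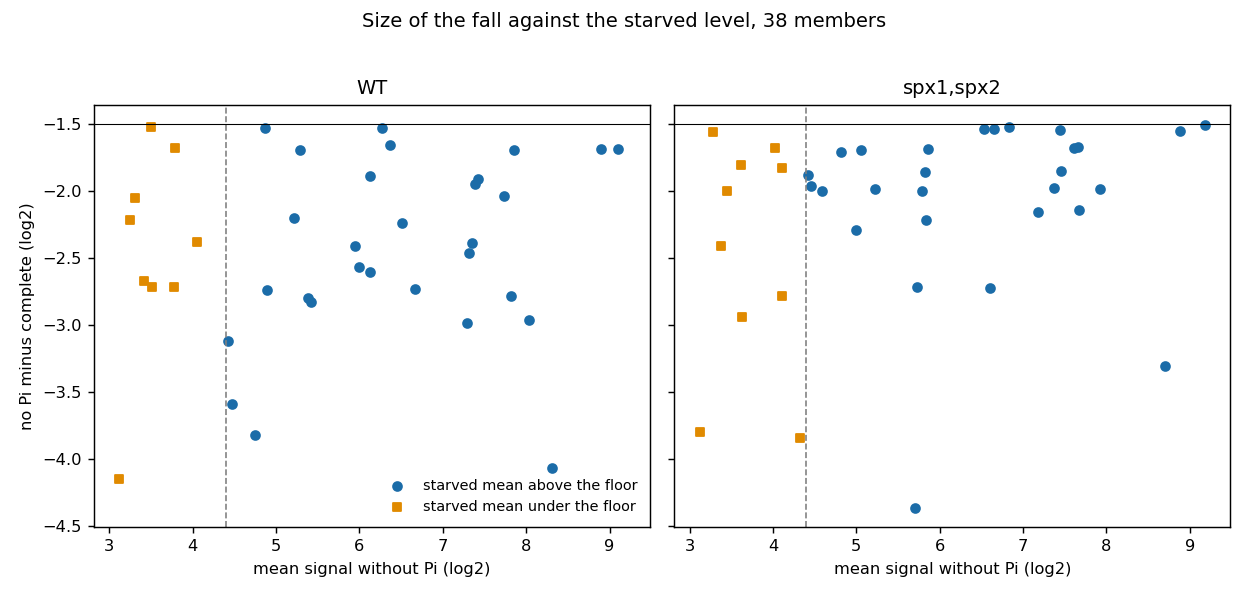
Starvation change (no Pi minus complete, log2) of each of the 38 members against its mean log2 signal without Pi, in WT (left) and spx1,spx2 (right). The dashed line marks 4.40 and orange squares lie under it, 9 members in WT and 10 in the mutant, and the horizontal line marks the rule's threshold of -1.5.

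The spread between replicates was largest in complete medium. The median standard deviation over members in WT was 0.33 in complete medium, 0.19 without Pi and 0.09 on resupply. In the mutant it was 0.34, 0.18 and 0.22. Over all probe sets it was 0.19, 0.11 and 0.08 in WT and 0.16, 0.14 and 0.12 in the mutant. In complete medium WT replicate 2 was the highest array of its group for 26 of the 38 members, and mutant replicate 3 for 27.

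The genotypes were compared within each medium to see whether the members' levels differed in seedlings lacking SPX1 and SPX2. In complete medium 16 of the 38 members differed, 13 lower and 3 higher in the mutant (limma, Benjamini-Hochberg adjusted p under 0.05 over all 22746 probe sets). Among all probe sets 18.2% differed, 8.15% lower and 10.1% higher. The median difference of the members was -0.38, against -0.06 over all probe sets, and 30 of 38 were below 0. The arrays of the genotypes did not overlap in 11 members lower and 3 higher in the mutant, as at 13.1% and 12.5% of all probe sets. The rule used these arrays, though not the difference between the genotypes. That difference is tied to the falls in both genotypes, which the rule did use. A member that fell further in WT, to a like starved level, starts lower in the mutant. The shares of members are therefore not read as a result apart from the rule.

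The largest reductions in the mutant were those of AT5G26200 (-1.76 ± 0.19, SE, n = 3 arrays per group, limma adjusted p = 2.47e-06) and 266719_at (-1.67 ± 0.24, limma adjusted p = 6.71e-05). In both, the 3 mutant arrays lay below the 3 WT arrays. AT5G40450 differed by -1.21 ± 0.30 (adjusted p = 0.00717) and AT2G05540 by -1.08 ± 0.32 (adjusted p = 0.022), and in both genes the arrays of the genotypes overlapped. EXPA8 differed by -0.88 ± 0.20 (adjusted p = 0.00343) and AT3G19850 by -0.95 ± 0.25 (adjusted p = 0.0133). AT4G33666 (-0.79), AT4G10910 (-0.73) and PR-1-LIKE (-0.57) were also lower, as were 245925_at (-0.93), 255127_at (-0.87), 267460_at (-0.80) and 258618_at (-0.40). The 13 hold 8 of the 9 named members that differed. AT5G14650, the polygalacturonase gene, did not pass, with a difference of -0.40 (95% interval -0.70 to -0.10, adjusted p = 0.0564).

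In the 3 members that were higher in the mutant in complete medium, the arrays of the genotypes did not overlap. 266385_at differed by 1.82 ± 0.20 (limma adjusted p = 1.97e-06) and 248169_at by 1.55 ± 0.12 (limma adjusted p = 1.9e-08). 248169_at read 4.87, 4.94 and 5.23 in WT and 6.55, 6.61 and 6.54 in the mutant. AT3G28540, the AAA-type ATPase gene, differed by 0.89 ± 0.19 (limma adjusted p = 0.00231).

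The count in complete medium leaned on single arrays. Mutant replicate 1 was the lowest of its group in 9 of the 13 members that were lower in the mutant, and mutant replicate 3 was the highest in 11. Without mutant replicate 1, 10 members differed, 7 lower and 3 higher, and AT2G05540, AT4G33666, AT5G40450, AT4G10910, 258618_at and 267460_at were no longer called. Without mutant replicate 3, 22 differed, 19 of them lower. On the 15 arrays with ordinary spike-in signal 11 differed, 8 lower and 3 higher. AT5G26200, 266719_at, 255127_at, EXPA8 and the 3 higher members kept their call under every alternative in which they were tested.

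Of the 79 repressed probe sets that rose again in both genotypes, 17 were lower and 7 higher in the mutant in complete medium, or 21.5% and 8.86%. For the 38 members the shares were 34.2% and 7.89%. Of all 197 that fell in both genotypes, members included, 23.9% were lower and 6.6% higher. The difference between these sets was not tested, since all were chosen from the same arrays.

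Without Pi 1 of the 38 members differed, where 0.831% of all probe sets differed, 0.339% higher and 0.492% lower. It was 258618_at (-0.74 ± 0.12, limma adjusted p = 0.00606), which read 7.51, 7.14 and 7.38 in WT and 6.68, 6.53 and 6.62 in the mutant. The differences of all 38 ran from -0.83 to 0.70, with a median of -0.01. The arrays did not overlap in 2 members higher and 4 lower in the mutant, as at 10.2% and 11.7% of all probe sets. AT5G26200, with the largest reduction in complete medium, had a difference of -0.05 (95% interval -0.46 to 0.35), and EXPA8 one of -0.17 (95% interval -0.58 to 0.24).

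After resupply 6 of the 38 members differed, 2 higher and 4 lower in the mutant. The share of members was 15.8%, where 23.1% of all probe sets differed, 11.4% higher and 11.7% lower. The arrays did not overlap in 7 members higher and 8 lower in the mutant, as at 28.4% and 21.2% of all probe sets. The rule kept the resupply change of each member within 0.5 in each genotype. This limited how far a genotype difference could grow on resupply, so the shares of members are not read as a result. AT1G67865 differed by 0.92 ± 0.14 (limma adjusted p = 0.000136). 249862_at differed by 0.85 ± 0.21 (limma adjusted p = 0.00612), with 9.08, 8.96 and 9.52 in the mutant against 8.07, 8.42 and 8.5 in WT. These 2 moved on resupply by 0.42 and 0.48 in the mutant and by -0.23 and 0.02 in WT.

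The members that were lower in the resupplied mutant were 260031_at (-1.29 ± 0.33, limma adjusted p = 0.00779), 264781_at (-1.18 ± 0.21, limma adjusted p = 0.000454), AT5G55660 (-0.79 ± 0.20, limma adjusted p = 0.00775) and 248910_at (-0.72 ± 0.21, limma adjusted p = 0.0188). 264781_at read 8.32, 8.24 and 8.43 in WT and 7.43, 6.83 and 7.20 in the mutant. AT5G55660 read 6.47, 6.29 and 6.67 in WT and 5.81, 5.67 and 5.58 in the mutant. In all 4 the arrays of the genotypes did not overlap. 248910_at lost its call when any 1 of the 3 WT resupplied arrays or mutant replicate 2 was left out, and 260031_at without mutant replicate 3. The dap spike-in signal was 7.77 to 8.19 on the WT resupplied arrays and 8.42 to 8.57 on those of the mutant, and its part in these differences was not tested.

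No member differed in both complete and resupplied medium. Across the 3 media 16 members differed in none, 21 in 1 medium, and 258618_at both without Pi and in complete medium.

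**Figure D4:**
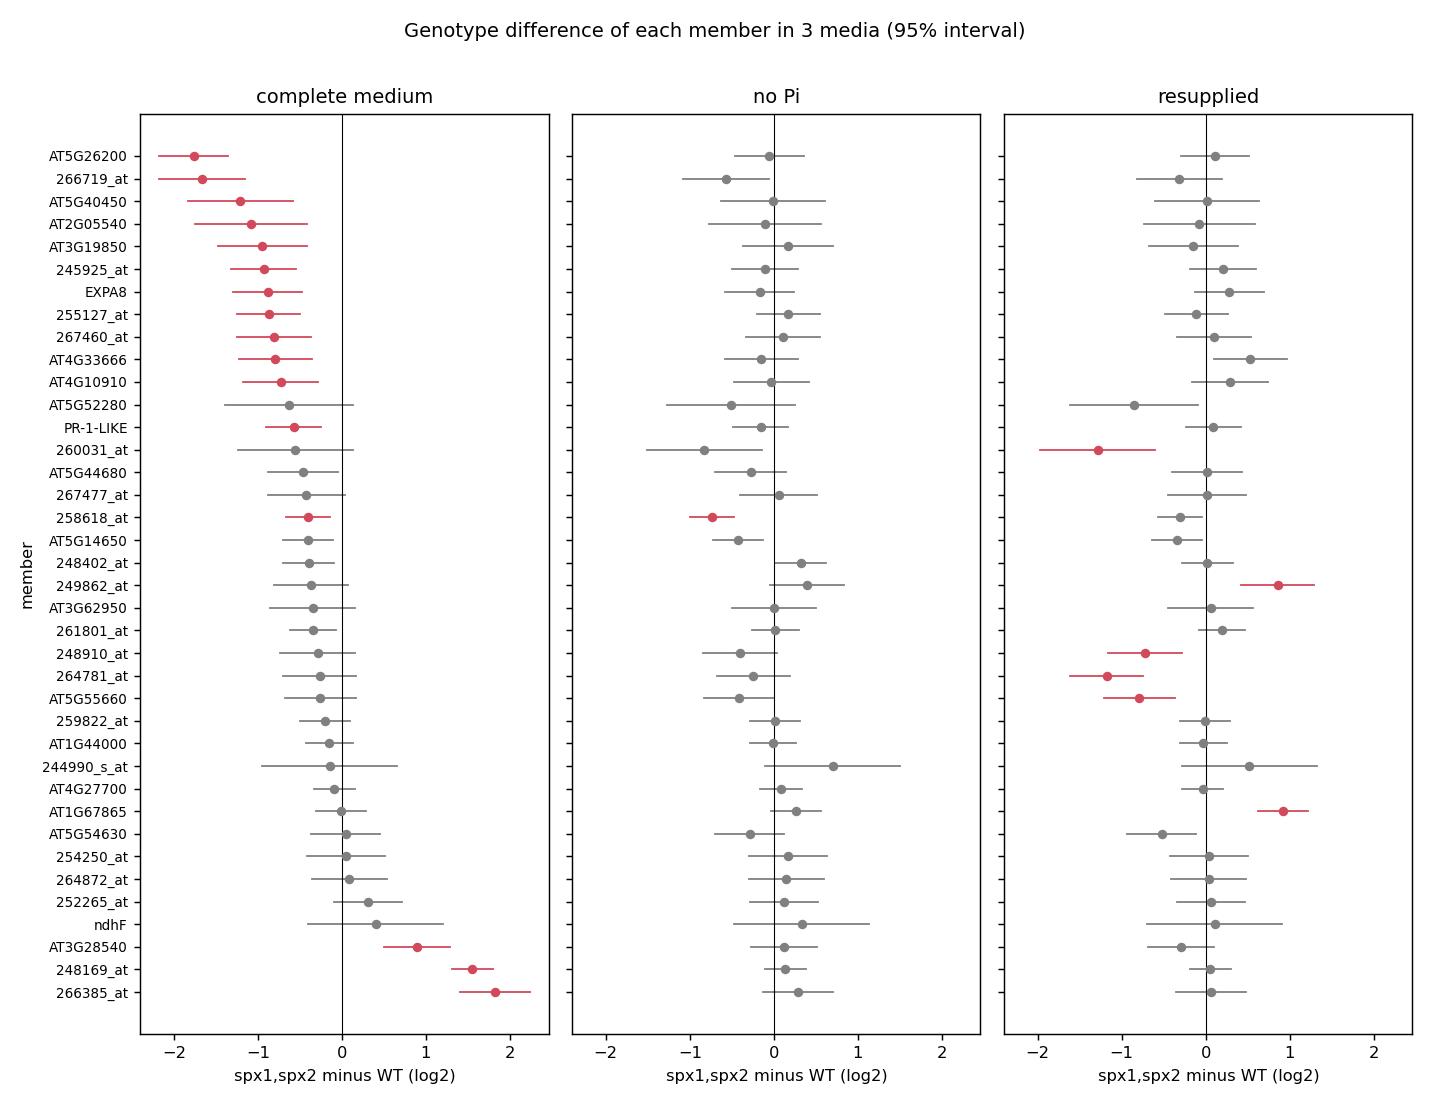
Difference of log2 signal (spx1,spx2 minus WT) of each of the 38 members in complete medium, without Pi and after resupply, with 95% intervals from the fit to all arrays, ordered by the difference in complete medium. Red points passed an adjusted p of 0.05, 16 in complete medium, 1 without Pi and 6 after resupply.

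The low-oxygen, iron-deficiency and phosphocholine synthesis lists held no member, with BHLH101 left out by name. Of 21 measured genes of the low-oxygen response, 15 fell on starvation in WT and 2 rose, where 28.1% of all probe sets fell and 20.4% rose. In the mutant 4 fell and 5 rose, where 26.3% of all probe sets fell and 17.7% rose. On resupply 15 fell and 1 rose in WT, where 19% of all probe sets fell and 18.4% rose, and 17 fell and 2 rose in the mutant, where 19.3% fell and 23.5% rose. In complete medium 19 of the 21 were already lower in the mutant than in WT and 1 was higher (limma). Over all probe sets 8.15% were lower there and 10.1% higher. AT1G33055 of this list changed by -3.33 in WT and -0.95 in the mutant on starvation, and by -1.55 and -1.82 on resupply. Its mean in complete medium was 10.399 in WT and 8.765 in the mutant. Of 4 measured iron-deficiency genes 2 fell and 1 rose on starvation in WT, and 2 fell and 2 rose in the mutant. AT3G13610 rose by 0.63 in WT and 1.195 in the mutant. AT1G47400 changed by -2.22 and -2.96 and then by 0.98 and 1.62 on resupply. BHLH101, left out of the members, changed by -2.28 in WT and -1.97 in the mutant, with resupply changes of -0.25 and 0.07. Of 4 measured genes of the phosphocholine synthesis list, 1 fell and 1 rose on starvation in each genotype. AT1G73600 changed by -4.28 and -5.31 and then by 2.87 and 1.55 on resupply. CCT1 rose on starvation by 1.31 in WT and 0.97 in the mutant.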

How the data were processed

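The deposited values are log2 signals made by the authors with RMA, per the submitters' processing notes. RMA corrects background, makes the arrays' distributions alike and summarises the probes of a set. The log base was inferred from the values (2.29 to 14.35). The software version is not stated in those notes. The 64 control probe sets were left out. The probe table gives 1 gene for 13513 probe sets, several for 503 and none for 8730. Of the 19 named members 18 matched RefSeq, and AT1G67865 keeps the table's name.

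Members were found from means of 3 arrays. All 18 arrays were fitted in 1 model with limma 3.58.1 on R 4.3.3, and p-values are two-sided and adjusted over all 22746 probe sets at 0.05. The number of arrays limits the precision. Replicates are marked as biological in the labels, without word of separate cultures, so p-values measure the spread between these samples, which may be partly technical. The procedure was tested on simulated data. The members and gene lists were chosen with earlier results of these data known. Named genes are the 16 named members with the largest mean fall, those that passed a genotype test and up to 3 per list, and other genes and probe set IDs given with values were chosen after their values were seen. Nitrate, lipid transfer, SAUR and ribosomal lists had no gene found by name, and the 18 cytochrome P450, 6 bHLH, 5 peroxidase, 4 pectin enzyme, 3 Pi starvation, 3 antenna and 2 MYB genes found, and 1 each for aquaporin, extensin and terpene lists, held no member. Of the Pi starvation genes 3 of 3 rose in WT. Alternatives were a replicate block, spike-in block, centring, array weights, a dim filter, another prior and each array left out.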

Additional observations from a re-analysis of the deposited data

Results flagged for a closer look

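In 4 members the genotypes were in opposite order in 2 media, with no overlap of the arrays in either. This was seen at 14.3% of all probe sets, and the change of order was not tested. AT5G26200, the mitochondrial carrier gene, differed by -1.76 (spx1,spx2 minus WT, log2) in complete medium and 0.11 after resupply. For 245925_at the differences were -0.93 and 0.20. AT4G33666 had -0.79 and 0.53, and AT3G28540 had 0.89 and -0.29. None of the 4 differences after resupply passed the test.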

How the results depend on the processing

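Of 23 member differences called between the genotypes, 12 kept their call under every alternative tried, 11 lost it under at least 1, and none changed sign. The members called in complete medium numbered 16, and 10 with only the 2 groups compared, with 10 to 22 when 1 array was left out. After resupply they numbered 6, and 12 both with array weights and with only the 2 groups compared, with 5 to 7 when 1 array was left out. Over all probe sets in complete medium, 4146 became 1525 with only the 2 groups compared, and 2370 to 4988 with 1 array left out. Without Pi 189 became 125 with the replicate block, 667 with array weights and 49 to 155 with 1 array left out. After resupply 5249 became 8094 with only the 2 groups compared, 9266 with array weights and 3311 to 5339 with 1 array left out. The cause of these shifts was not tested. Same-numbered arrays of the genotypes had residual correlations from -0.45 to 0.232 (9 pairs, 3 of them over 0.1). The resupplied pairs were at 0.103, 0.172 and 0.078. Whether replicate numbers pair the arrays cannot be told from so few values. The replicate block left the member counts at 16, 1 and 6. With each array centred, the share of all calls higher in the mutant went from 55.3% to 41.7% in complete medium and from 40.7% to 62.8% without Pi, and the members called were 3 higher and 16 lower in complete medium. The rule gave 33 to 54 members with 1 array left out, 46 on the 15 arrays with ordinary spike-in signal, of which 31 are shared with the 38, and 35 with each array centred, of which 30 are shared. It gave 223 with a fall of at least 1, 10 with a fall of at least 2, 23 with a resupply change within 0.3 and 58 within 0.7. With the floor at the lowest 10th percentile of the arrays, 3 members in place of 10 were near it.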
